A study of Mus musculus with 10 samples.

Results

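Glucocorticoid receptor (GR), lysine-specific demethylase 1 (LSD1) and 2 methylation states of histone H3 lysine 9 were mapped at 10 genes of the circadian clock in mouse skeletal muscle. The genes were Per1, Per2, Per3, Cry1, Cry2, Clock, Nr1d1, Nr1d2, Dbp and Rora. They were taken by name, and the peaks assigned to a gene were those whose midpoint lay in the gene body or within 30 kb of one of its transcription start sites (TSS). All 10 were found among the 26180 curated RefSeq genes of mouse genome build GRCm38. The lists came from chromatin immunoprecipitation sequencing (ChIP-seq), in which DNA bound by a protein or carrying a histone mark is recovered with an antibody and sequenced. Skeletal muscle came from C57BL/6J mice aged 10 weeks, which were either fed or starved for 24 h. The study worked on male mice, and the labels of these samples name no genotype. Nuclei were prepared from whole muscle, so that nuclei of every cell type of the tissue could contribute, and fewer nuclei of a type cannot be told apart from less binding in each. Each of the 8 peak lists (GR, LSD1, H3K9me1 and H3K9me2, fed and starved) came from 1 library. No difference between conditions could therefore be set against a spread between replicates, no test was made, and the values describe these libraries. The lists held from 6624 peaks (H3K9me2 starved) to 171402 peaks (H3K9me2 fed). Read numbers were not analysed, so the depth is unknown. Library code and condition could not be told apart for H3K9me1 and H3K9me2, whose fed and starved libraries carried different codes. Of 12 muscle genes, which included Acta1, Ckm, Des and Ryr1, between 8 and 9 had a promoter peak in each GR and LSD1 list. Over all genes the shares were 13.4% and 23.3% for GR (fed and starved), and 22.4% and 16.2% for LSD1. Myh4 had none in any of these lists, Tnnt3 none in either GR list, and Acta1 none in LSD1 fed. Of 5 marker genes of other tissues, 0 had a promoter peak in these lists.

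In the circadian clock, CLOCK and its partner BMAL1 (gene Arntl) bind E-boxes in DNA and drive transcription of the Per and Cry genes, whose products then repress CLOCK and BMAL1. Nr1d1 and Nr1d2 encode REV-ERB repressors and Rora encodes a nuclear receptor activator, which compete at ROR elements, among others at the gene of BMAL1. Dbp encodes an output transcription factor that binds D-boxes. GR is a nuclear receptor that binds glucocorticoid response elements (GREs) once glucocorticoid hormone is present, and Per1 is a textbook glucocorticoid-responsive gene. LSD1 removes methyl groups from mono- and dimethylated lysines of histone H3. H3K9me2 is a mark of repressed chromatin. The hour of the day at which the muscles were taken is not given in the sources used here, and its part in any difference between the lists was not tested.

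GR peaks lay at 9 of the 10 genes in fed muscle and at the same number in starved muscle, where 43.1% and 66.5% of all RefSeq genes had a peak by the same rule. Clock was the gene without a GR peak in both lists. LSD1 peaks lay at all 10 genes in fed muscle (51.1% of all genes) and at 9 in starved muscle (83.7% of all genes), where Cry1 had none. H3K9me1 peaks lay at 6 genes in fed and 9 in starved muscle, against 38.0% and 65.6% of all genes. H3K9me2 peaks lay at all 10 genes in fed muscle, as at 95.5% of all genes, and at Rora alone in starved muscle, as at 10.2% of all genes. For LSD1 starved and for H3K9me2 the counts were thus near those of all genes. The exact 95% intervals also included the share of all genes for GR starved (55.5 to 99.7%), H3K9me1 fed (26.2 to 87.8%) and H3K9me1 starved (55.5 to 99.7%). They lay above it for GR fed (55.5 to 99.7%) and LSD1 fed (69.2 to 100%). These intervals cover counting error only. At least 1 GR peak and at least 1 LSD1 peak were found at 9 of the genes in fed muscle (37.1% of all genes) and at 8 in starved muscle (61.0% of all genes).

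**Figure D1:**
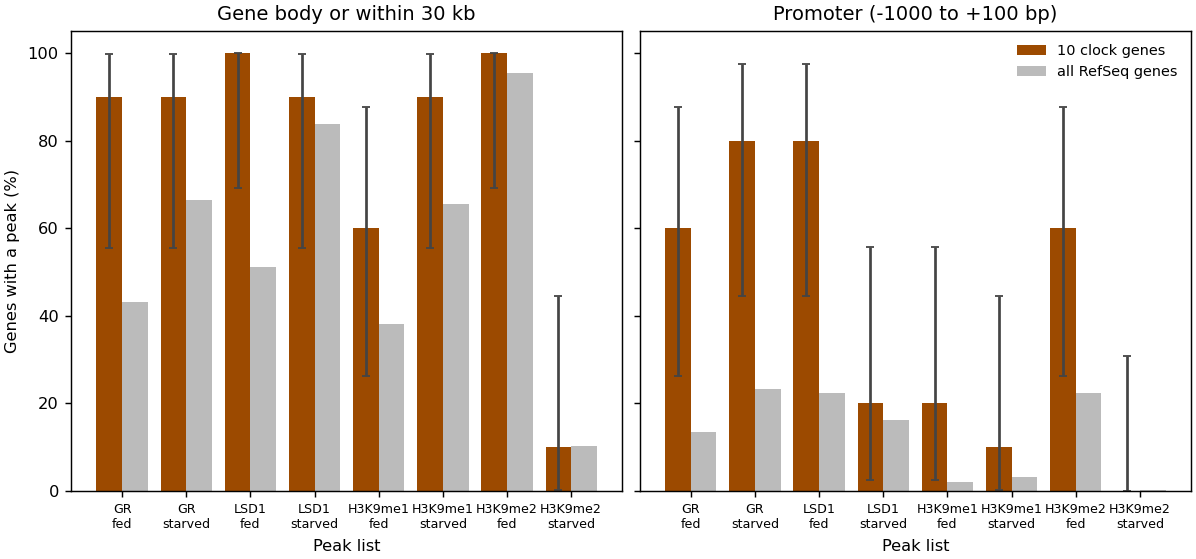
Percentage of the 10 clock genes (brown) and of all RefSeq genes (grey) with a peak in each of the 8 lists, in the gene body or within 30 kb of a TSS (left) and in the promoter (right). Error bars are exact (Clopper-Pearson) 95% binomial intervals and cover counting error only. The promoters stand furthest from all genes for GR fed, GR starved and LSD1 fed, and LSD1 starved is close to all genes in both panels.

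Promoters were taken as the 1000 bp before a TSS and the 100 bp after it, and a peak was placed by its midpoint. GR was called at 6 of the 10 promoters in fed muscle (Per1, Per3, Cry1, Cry2, Nr1d1 and Dbp), against 13.4% of all genes. In starved muscle GR was called at 8 promoters, those 6 and the promoters of Per2 and Rora, against 23.3% of all genes. LSD1 was called at 8 promoters in fed muscle, against 22.4% of all genes. They were those of Per1, Per2, Cry1, Clock, Nr1d1, Nr1d2, Dbp and Rora. In starved muscle LSD1 was called at only 2 of them, those of Nr1d2 and Dbp, against 16.2% of all genes. The count of clock genes thus went from 8 to 2, while that of all genes went from 22.4% to 16.2%. Peaks that reached into the promoter with any base were counted at 9 clock genes for GR in both conditions (16.0% and 28.9% of all genes), and at 10 and 3 for LSD1 (25.4% and 18.2%), so the step from 6 to 8 for GR came from where the midpoints fell. With the promoter extended to 1000 bp after the TSS, LSD1 was called at all 10 genes in fed muscle and at 4 in starved muscle (27.8% and 22.3% of all genes). GR and LSD1 were both called at the promoters of Per1, Cry1, Nr1d1 and Dbp in fed muscle (9.34% of all genes), and at that of Dbp in starved muscle (9.18% of all genes). H3K9me1 was called at the promoters of Per3 and Nr1d2 in fed muscle (1.94% of all genes) and at that of Clock in starved muscle (3.10% of all genes). H3K9me2 was called at 6 promoters in fed muscle, those of Per1, Cry1, Cry2, Nr1d1, Nr1d2 and Rora (22.3% of all genes). It was called at none in starved muscle, as at 0.206% of all genes.

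The promoter peaks differed in strength as well as in number. Fold enrichment over input, which is the mean over the peak from the authors' peak caller, was between 2.66 and 8.40 at the 6 GR promoter peaks in fed muscle. It was between 2.38 and 4.58 at the 8 in starved muscle. Per1 held the highest value in both lists. LSD1 promoter peaks lay between 3.68 and 4.24 in fed and between 3.01 and 3.56 in starved muscle, a narrow range over the genes.

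**Figure D2:**
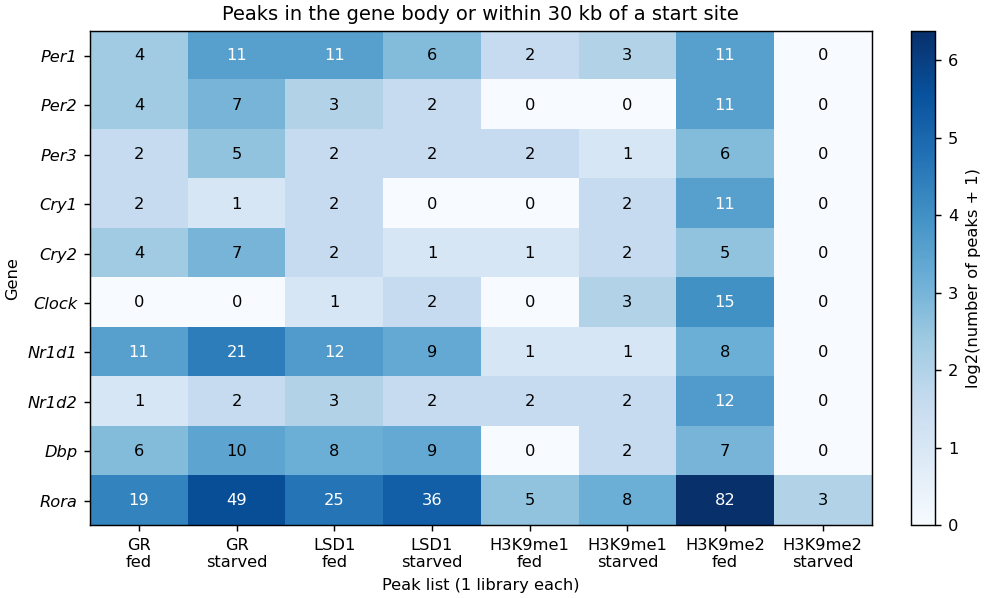
Number of peaks in the gene body or within 30 kb of a TSS for each of the 10 clock genes (rows) in each of the 8 lists (columns). Colour is log2(number of peaks + 1). Rora and Nr1d1 have the most GR peaks, Clock has none, and H3K9me2 starved is at 0 for every gene except Rora.

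Numbers of peaks per gene spread widely. In all, 53 GR peaks of the fed list and 113 of the starved list lay at the 10 genes, and 69 LSD1 peaks of each list. The whole GR list grew from 14108 to 37783 peaks, so the ratio of starved to fed was 2.13 at the clock genes and 2.68 in the list. For LSD1 the ratio was 1.00 at the clock genes and 3.99 in the list, which grew from 16616 to 66332 peaks. The text of the study gives far fewer LSD1 peaks in starved muscle than this list holds, and fewer than in fed muscle. The direction in the deposited lists is thus the reverse, and the LSD1 ratios hold for the lists as deposited only. The ratios also depend on the threshold. At q-values of 0.01 or less they were 1.32 for GR, as in its list, and 0.462 for LSD1 (list 0.899). With peaks enriched at least 5 times that of GR turned to 0.429 (list 0.436). Without Rora, whose window is 764 kb long against 60.0 to 125 kb for the other genes, 34 and 64 GR peaks and 44 and 33 LSD1 peaks remained. Peaks per 100 kb of window allow the genes to be compared. All gene windows together held 0.819 GR peaks per 100 kb in fed and 2.14 in starved muscle. The window of Nr1d1 held 18.3 and 35.0, and was the densest of the 10 in both lists. Dbp followed with 10.0 in fed muscle, and Per1 with 18.0 in starved muscle. Nr1d2 held 1.54 and 3.07. Cry1 held 2.40 and 1.20, so Cry1 was below all gene windows in starved muscle, and Clock, at 0, was below them in both. Rora, in spite of the 19 and 49 peaks in its window, held 2.49 and 6.41. LSD1 showed the same leading genes, with 20.0 and 15.0 peaks per 100 kb at Nr1d1, 18.0 and 9.80 at Per1 and 13.3 and 15.0 at Dbp, beside 0.995 and 2.89 in all gene windows.

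The windows of several genes also hold start sites of other genes, and a peak there may belong to them. Dbp has 7 such neighbours (among them Sphk2, Car11 and Fam83e), Per1 has 5 (among them Vamp2 and Hes7), Clock 3, Cry2 and Rora 2 each, and Per3 and Nr1d1 1 each. Per2, Cry1 and Nr1d2 have none. The clock gene held the nearest TSS for 31 of the 53 GR peaks in fed and 58 of the 113 in starved muscle, and for 37 and 41 of the 69 LSD1 peaks. Nr1d1 held it for 5 of 11 and 10 of 21 GR peaks, and for 4 of 12 and 4 of 9 LSD1 peaks. For Dbp it was 2 of 6 and 3 of 10 with GR, and 3 of 8 and 5 of 9 with LSD1. For Per1 it was 4 of 4 and 5 of 11 with GR, and 6 of 11 and 3 of 6 with LSD1. The peaks per 100 kb count all peaks of a window.

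Per1 (chr11:69098949-69109960, plus strand), which encodes a repressor of CLOCK and BMAL1, carried the highest GR enrichment among the 10 genes. A peak at chr11:69096481-69097214, 2.10 kb upstream of the first TSS, had a fold enrichment of 10.4 in fed muscle, and 0.617% of the peaks of that list were as high or higher. The overlapping starved peak, chr11:69096495-69097375, had a fold enrichment of 7.94 and lay in the top 0.312% of its list. A second peak spanned both annotated start sites. It ran over chr11:69098946-69100284 (1339 bp) with a fold enrichment of 8.40 in fed muscle, and over chr11:69097869-69100211 (2343 bp) with 4.58 in starved muscle. This longer starved peak extended further upstream and had the lower mean enrichment. A weaker peak, 3.88 kb upstream in fed muscle, went the other way, with 2.98 in fed and 4.45 in starved muscle. LSD1 peaks overlapped all 3 of these sites in fed muscle and none of them in starved muscle. The promoter peak of LSD1 in fed muscle, chr11:69099168-69099513, had a fold enrichment of 4.12. The highest LSD1 peak in the window lay 0.114 kb downstream of the second TSS in fed muscle (4.15) and near the neighbouring gene Snord118 in starved muscle (4.42). In all, 11 LSD1 peaks in fed and 6 in starved muscle lay at Per1, and 1 of the 11 was overlapped by a starved peak.

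Both high GR peaks of Per1 held a sequence with 1 mismatch to the GRE consensus. The consensus searched was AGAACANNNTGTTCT, with N for any base, on both strands, and it reads the same on each. Positions are counted from 1 at the 5′ end of the consensus, and substitutions give its base first. All 4 GRE-like sequences in GR peaks of the clock genes are printed here, since they mark where a receptor contact could be read from the DNA. They are on the plus strand of GRCm38 with 10 bases on each side, and the 15 bases of the match are in capitals.
Per1 upstream site, chr11:69097076-69097090, T15C: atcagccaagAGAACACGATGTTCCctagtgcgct
Per1 first intron, chr11:69099416-69099430, A1G: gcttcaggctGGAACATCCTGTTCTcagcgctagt
Rora intron, chr9:69227470-69227484, G2A: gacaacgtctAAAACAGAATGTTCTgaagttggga
Nr1d2 intron, chr14:18234673-18234687, T12G: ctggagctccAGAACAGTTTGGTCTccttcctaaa

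The upstream match of Per1 lies 1.87 kb before the first TSS, in intergenic sequence. The other lies 474 bp after the first TSS and 729 bp before the second, in intron sequence of the longer transcript. Both, and the Rora match, were under GR peaks in fed and starved muscle. The Rora peak had a fold enrichment of 4.20 in fed and 4.55 in starved muscle. The Nr1d2 match was under a GR peak of starved muscle alone, with a fold enrichment of 2.70. Thus 3 of 53 GR peaks of the clock genes in fed muscle (5.66%, 95% interval 1.18 to 15.7) and 4 of 113 in starved muscle (3.54%, 0.973 to 8.82) held a GRE-like sequence. In the whole lists 2.17% and 0.712% of the peaks did. The fed interval includes the share of its list. Among all GR peaks enriched at least 5 times over input, 7.28% in fed and 7.75% in starved muscle held one. No match without a mismatch was found in the GR peaks of the 10 genes.

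**Figure D3:**
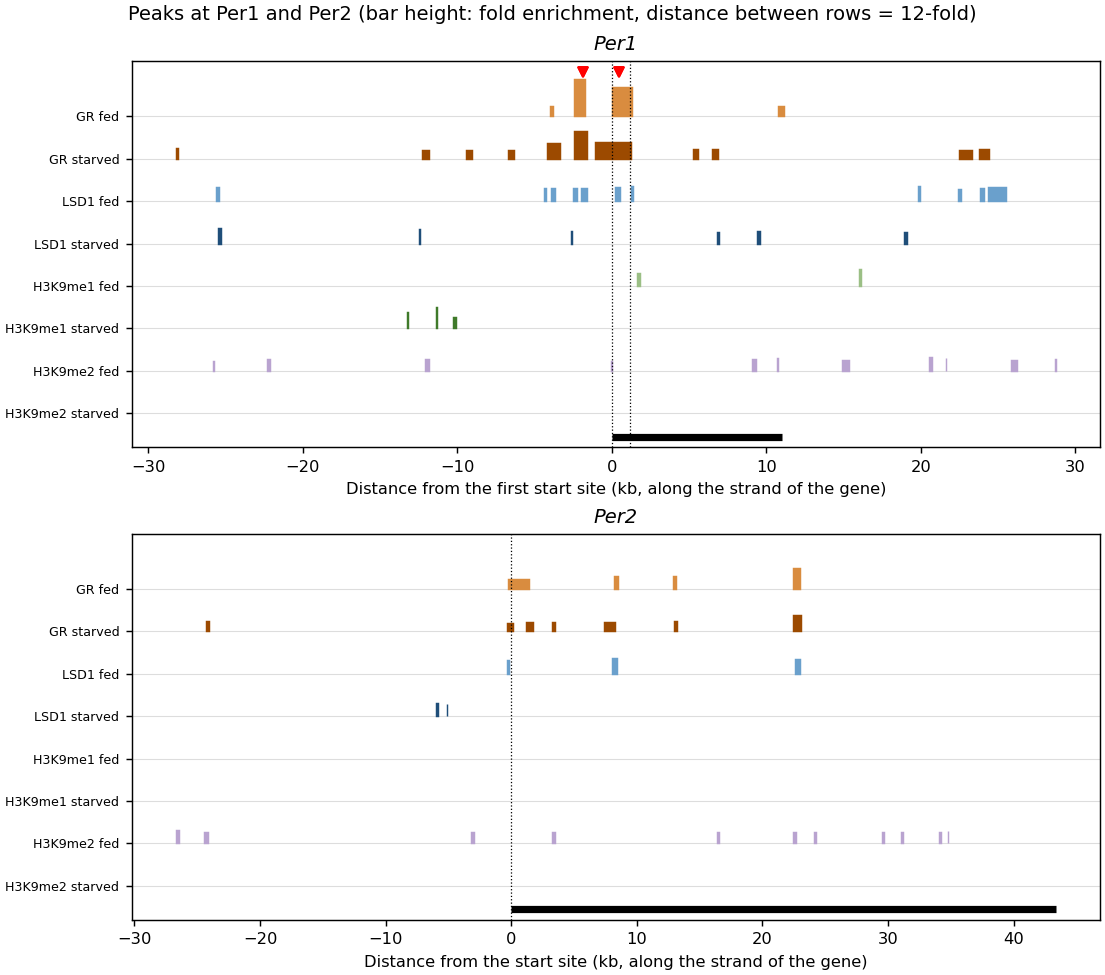
Peaks of all 8 lists at Per1 and Per2 by distance from the first TSS in kb, along the strand of the gene. Bars span the peaks and their height is the fold enrichment, dotted lines are start sites, the black bar is the gene body, and red triangles are GRE-like sequences. At Per1 the highest GR peaks sit at 2.10 kb upstream and at the start sites, with LSD1 peaks under them in fed muscle only.

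Per2 (chr1:91415982-91459328, minus strand), the paralogue of Per1, carried its highest GR peak in an intron, 22.7 kb downstream of the TSS at chr1:91436323-91436921. Its fold enrichment was 5.99 in fed and 4.72 in starved muscle. All 4 GR peaks of fed muscle at Per2 were overlapped in starved muscle, and each had a lower enrichment there, with ratios of starved to fed from 0.739 to 0.962. A GR peak with its midpoint in the promoter was called in starved muscle (2.38), whereas in fed muscle a single peak of 1683 bp with a midpoint 0.584 kb inside the gene covered the TSS (2.79). LSD1 was called at 3 sites in fed muscle, at the promoter (3.80), in an intron 8.22 kb downstream (4.38) and at the intron site of the highest GR peak (4.24). All 3 overlapped GR peaks of fed muscle. In starved muscle the 2 LSD1 peaks lay 5.11 and 5.93 kb upstream, away from every GR peak, with 3.40 and 3.61. Per2 and Per1 were alike in that no site was called in all 4 GR and LSD1 lists, which also held for Cry1 and Clock. At both Per2 and Per1, 3 sites were called in GR fed, GR starved and LSD1 fed.

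Per3 (chr4:151003655-151044665, minus strand), the third Period gene, had 2 GR peaks in fed and 5 in starved muscle. The promoter peak had a fold enrichment of 3.24 in fed and 2.62 in starved muscle. It was 256 bp long in fed and 1071 bp in starved muscle. The highest GR and LSD1 peaks in the window lay at or just inside the start of the neighbouring gene Vamp3, with GR at 3.72 and 3.66 and LSD1 at 3.78 and 3.62 (fed and starved). That site was called in all 4 lists. Within Per3 itself LSD1 was called in fed muscle alone, over 55 bp in exon sequence 0.116 kb after the TSS (3.71).

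The Cry genes encode the partners of the PER proteins in repression. Cry1 (chr10:85131700-85185054, minus strand) had 2 GR peaks in fed and 1 in starved muscle, and was the only one of the 10 genes with fewer GR peaks in starved than in fed muscle. Its promoter peak had a fold enrichment of 2.72 in fed and 3.02 in starved muscle. An intron peak 23.1 kb downstream (3.52) was called in fed muscle alone. LSD1 was called at the same 2 sites in fed muscle, with 3.96 and 3.79, and nowhere at Cry1 in starved muscle. Cry2 (chr2:92403646-92434069, minus strand) had 4 GR peaks in fed and 7 in starved muscle. Its highest GR peak, chr2:92435158-92435283 in fed muscle and chr2:92435099-92435529 in starved muscle, lay 1.15 kb and 1.25 kb upstream of the TSS with a fold enrichment of 3.33 and 4.90. Its promoter peak had 3.05 in fed and 2.47 in starved muscle. LSD1 was called just inside the gene in both conditions, with 3.70 in fed and 3.84 in starved muscle, and in an intron 10.1 kb downstream in fed muscle (4.64).

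Clock (chr5:76209868-76304792, minus strand), which encodes the DNA-binding partner of BMAL1, had no GR peak in 125 kb of window in either condition. An LSD1 peak of 318 bp covered 2 of its 3 start sites in fed muscle with a fold enrichment of 3.91. In starved muscle the 2 LSD1 peaks lay in introns, 42.6 kb (4.40) and 36.1 kb (3.39) downstream. Clock carried 15 H3K9me2 peaks in fed muscle and none in starved muscle.

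Nr1d1 (chr11:98767932-98775377, minus strand), which encodes REV-ERB alpha, had 11 GR peaks in fed and 21 in starved muscle. Of all RefSeq genes 0.176% had at least 11 GR peaks in fed muscle and 0.229% had at least 21 in starved muscle, although its window of 60.0 kb is the shortest that the rule gives. All 11 fed peaks were overlapped in starved muscle. The starved enrichment was lower in 3 of these 11 pairs, against 78.7% of the 9287 pairs of the whole list. The highest GR peak of the window lay in an intron of Thra, the gene that overlaps the end of Nr1d1 on the other strand, 20.6 kb from the TSS of Nr1d1. It ran over chr11:98754283-98755357 in fed muscle with a fold enrichment of 5.31, and reached 5.37 in starved muscle. The promoter peak had 3.38 in fed and 3.96 in starved muscle, and an intron peak 1.43 kb downstream of the TSS had 3.17 and 4.33. LSD1 was called 12 times in fed muscle, with 0.164% of all genes having as many, and 9 times in starved muscle. Its highest peak lay at the promoter of the neighbour Msl1 in both conditions (4.69 and 3.94). The LSD1 peak at the promoter of Nr1d1 (3.79) was called in fed muscle alone. Of 26 sites in the window, taken as GR and LSD1 peaks merged where they overlapped, 5 were called in all 4 lists.

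**Figure D4:**
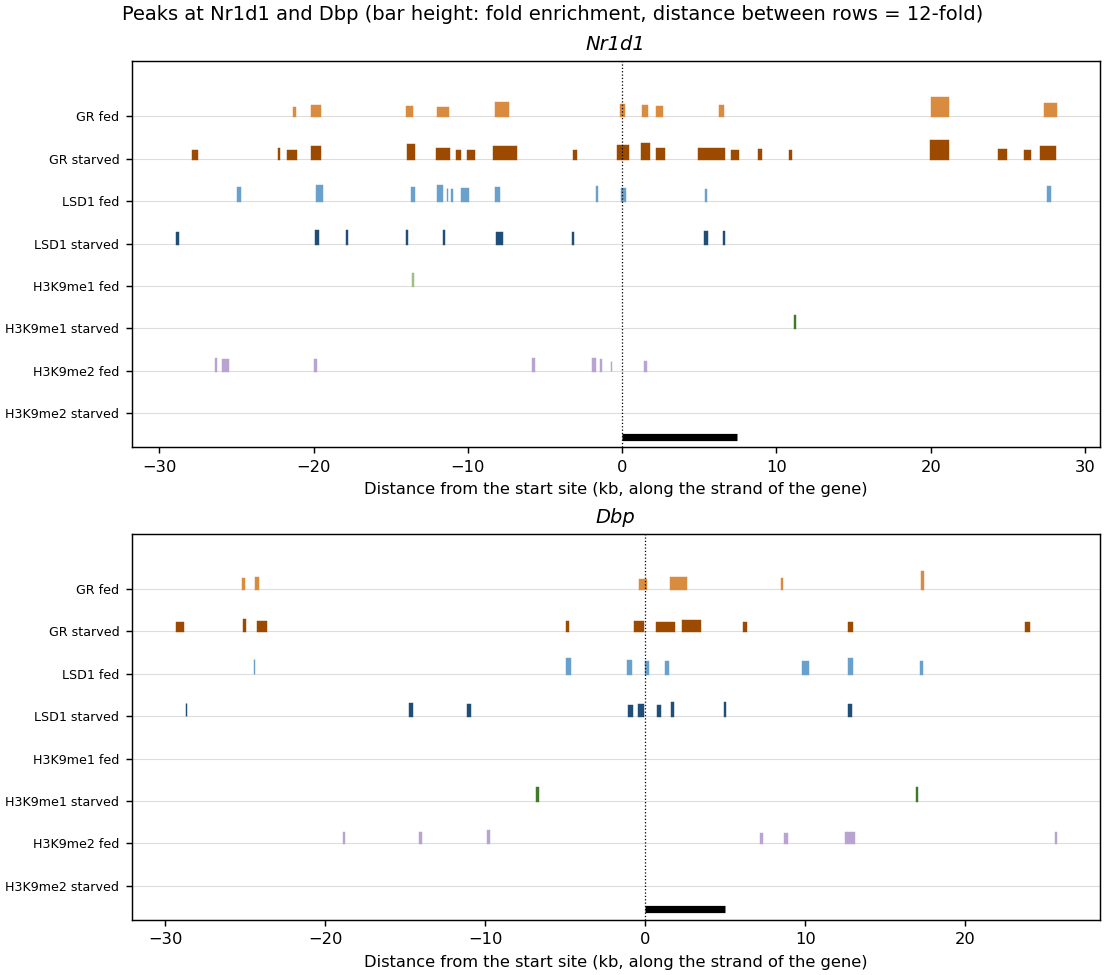
Peaks of all 8 lists at Nr1d1 and Dbp by distance from the TSS in kb, along the strand of the gene. Bars span the peaks and their height is the fold enrichment, dotted lines are start sites, and the black bar is the gene body. GR peaks fill the window of Nr1d1, 11 in fed and 21 in starved muscle, with a fold enrichment of at least 5 at 1 site.

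Nr1d2 (chr14:18204056-18239106, minus strand), the paralogue that encodes REV-ERB beta, had 1 GR peak in fed and 2 in starved muscle. The shared one covered the TSS over 1279 bp and 1479 bp, with a fold enrichment of 4.04 in fed and 2.83 in starved muscle. LSD1 was called at the promoter in both conditions, with 4.24 and 3.44, and in an intron 0.621 kb and 0.831 kb after the TSS, with 3.89 and 3.79. Of the 10 genes, Nr1d2 and Dbp had an LSD1 promoter peak in starved muscle. That of Nr1d2 overlapped the fed promoter peak, and those of Dbp did not. Nr1d1 and Nr1d2 thus differed in number of GR peaks and in LSD1 at the promoter after starvation, in 1 library each.

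Dbp (chr7:45705247-45710203, plus strand) had 6 GR peaks in fed and 10 in starved muscle, and 8 and 9 LSD1 peaks. The promoter peak of GR had a fold enrichment of 2.66 in fed and 2.99 in starved muscle. A GR peak in an intron of Dbp, 2.07 kb downstream, had 3.39. The highest GR peak of fed muscle in the window, chr7:45722468-45722598, lay in the neighbouring gene Fam83e, 17.3 kb away (5.04), and had no counterpart in starved muscle. The highest of starved muscle lay 25.1 kb upstream in Sec1 (3.55). LSD1 at the promoter had 3.68 in fed muscle. In starved muscle 2 LSD1 peaks were called there, with 3.56 and 3.01. The highest LSD1 peaks were at the promoters of Rpl18 and Sphk2 in fed muscle (4.49) and in an exon of Dbp in starved muscle (4.12).

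Rora (chr9:68653786-69388246, plus strand), a gene of 734 kb, held 19 GR peaks in fed and 49 in starved muscle, nearly all in introns. Its highest GR peaks were 287 kb and 239 kb from the nearest Rora TSS. The first, chr9:68941090-68941341, had a fold enrichment of 6.05 in fed and 4.45 in starved muscle. The second, chr9:69050784-69051295, had 5.89 and 4.32. Another, chr9:68804248-68804894 in starved muscle, went the other way, with 3.54 in fed and 5.84 in starved muscle. At the downstream start site a GR promoter peak was called in starved muscle (3.45). An overlapping GR peak of fed muscle, 906 bp long (3.16), also covered this TSS, but its midpoint lay 0.235 kb inside the gene. LSD1 was called at both start sites in fed muscle, with 4.03 at the upstream and 4.00 at the downstream one, and at no promoter in starved muscle. A starved LSD1 peak of 49 bp (3.73) overlapped the fed peak of the downstream start site but lay past the end of the promoter. The highest LSD1 peaks of the 10 genes were in Rora introns, with 4.85 in fed and 4.76 in starved muscle.

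Across the 10 genes, 7 GR peaks in fed and 3 in starved muscle were enriched at least 5 times, and they lay at Per1, Per2, Nr1d1, Dbp and Rora. In the whole lists 11.1% and 1.82% of GR peaks reached it. No LSD1 peak of the 10 genes reached it in either condition. In the whole LSD1 lists 6.70% of the peaks in fed and 0.464% in starved muscle did. LSD1 peaks of fed muscle overlapped 6 of the 7 high GR peaks of fed muscle, and LSD1 peaks of starved muscle overlapped 1 of the 3 of starved muscle. The same share over all GR peaks of that enrichment was not computed, so these counts cannot be called particular to the clock genes.

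The study asked whether GR and LSD1 share sites in fed muscle and after starvation. Of the 53 GR peaks of fed muscle at the clock genes, 44 (83.0%, 95% interval 70.2 to 91.9) were overlapped by at least 1 bp in starved muscle, against 65.8% of the whole list. For LSD1 it was 18 of 69 peaks (26.1%, 16.3 to 38.1), against 23.1% of the list. The interval of GR lay above the share of its list, and that of LSD1 included it. When the longer starved list was shortened to the length of the fed list by fold enrichment, 62.3% of GR and 8.70% of LSD1 peaks were called again. Shares of the whole lists were not computed with shortened lists. Whether GR at the clock genes stays above its list there was thus not tested. LSD1 of fed muscle overlapped 31 of the 53 GR peaks of fed muscle (58.5%, 44.1 to 71.9), and 48.3% of the list. LSD1 of starved muscle overlapped 19 of the 113 GR peaks of starved muscle (16.8%, 10.4 to 25.0), and 14.7% of the list. Read from LSD1, 50.7% of its 69 peaks in fed muscle (38.4 to 63.0, list 42.8%) and 31.9% of its 69 peaks in starved muscle (21.2 to 44.2, list 9.14%) overlapped GR. The last share stood furthest above its list, was 45.5% without Rora, and came to 13.6% (3 of 22 peaks) with both starved lists shortened to the length of the fed ones. Peaks of 1 gene are not independent, so the intervals hold for counting error alone, and a list of more or longer peaks has a higher chance of overlap. LSD1 peaks at the clock genes had a median length of 194 bp in fed muscle (list 196 bp) and of 157 bp in starved muscle (list 103 bp).

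Merging gave 177 sites, of which 113 were in 1 list and 14 in all 4. The latter lay at Nr1d1 (5), Rora (4), Dbp (2), Cry2, Per3 and Nr1d2 (1 each). The most frequent pattern of at least 3 lists was GR fed, GR starved and LSD1 fed without LSD1 starved, with 17 sites. The whole lists were not merged in this way, so the counts of sites have no share over all sites beside them and cannot be called particular to the clock genes.

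Where GR was called at a clock gene in both conditions, 26 of 44 pairs (59.1%) had the lower enrichment in starved muscle, with a median ratio of starved to fed of 0.955. In the whole list 78.7% of the 9287 pairs did, and the median ratio was 0.878. The genes differed in this. The median ratio was 1.03 over the 11 pairs of Nr1d1 and 1.04 over the 4 of Dbp, but 0.763 over the 3 of Per1, 0.792 over the 4 of Per2 and 0.701 for the single pair of Nr1d2. The latter 3 values lie below that of the list. In length, the starved peak was longer than the fed one in 34 of the 44 pairs. That share was not computed for the whole list, where the median length was 277 bp in fed and 313 bp in starved muscle. Each fed peak was paired with the overlapping starved peak of highest enrichment, and a starved peak could be paired with several fed peaks. The 68 GR peaks of starved muscle with no fed peak under them had a median fold enrichment of 2.67 and a maximum of 3.19. The median of the whole starved list, which holds peaks with and without a fed peak, was 2.70. Medians of the list were not computed for each kind. The 45 with a fed peak had a median of 3.25, and made up 39.8% of the starved peaks at the clock genes, against 24.5% of the list. For LSD1, 15 of 18 pairs (83.3%) were lower in starved muscle, against 87.3% of the 3834 pairs of the list. The median ratio was 0.848 beside 0.854 in the list.

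**Figure D5:**
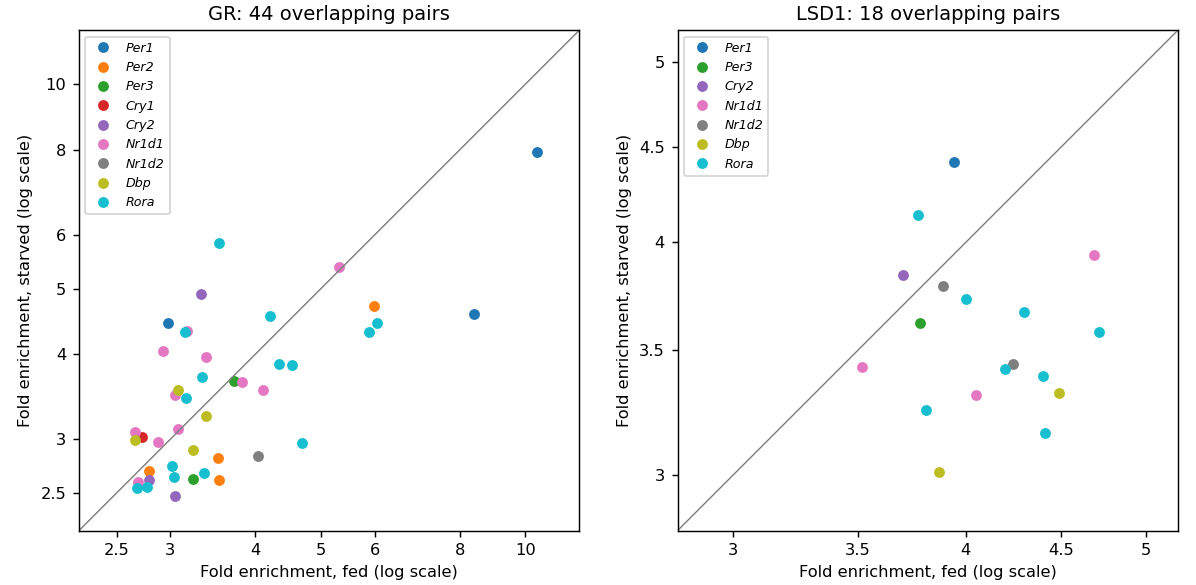
Fold enrichment of overlapping peaks in fed (x) and starved (y) muscle at the 10 clock genes, for GR (left, 44 pairs) and LSD1 (right, 18 pairs), on log scales and coloured by gene. The grey line marks equal values. Both Per1 sites of highest GR enrichment and all 4 Per2 pairs lie below the line, and 8 of the 11 Nr1d1 pairs lie on or above it.

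H3K9 methylation was compared with these sites next. H3K9me2 of fed muscle overlapped 8 of the 53 GR peaks of fed muscle (15.1%, 6.75 to 27.6, list 16.5%) and 7 of the 69 LSD1 peaks (10.1%, 4.18 to 19.8, list 16.8%). H3K9me1 of fed muscle overlapped 1 GR peak (1.89%, list 2.27%) and 2 LSD1 peaks (2.90%, list 2.29%). In starved muscle H3K9me1 overlapped 3 of 113 GR peaks (2.65%, list 2.99%) and 2 of 69 LSD1 peaks (2.90%, list 1.56%). These shares were near those of the lists. H3K9me2 of starved muscle overlapped none. A count of 0 among 113 and among 69 peaks allows a share of up to 3.21% and 5.21% (upper limits of the exact intervals), beside 1.17% and 0.831% of the lists. At the promoter of Per1 an H3K9me2 peak of 79 bp (2.90) lay 0.012 kb upstream of the first TSS in fed muscle. At Nr1d2 H3K9me2 (3.15) and H3K9me1 (3.46) lay upstream of the TSS under LSD1 in fed muscle. Of 168 H3K9me2 peaks at the clock genes in fed muscle none was overlapped in starved muscle, as only 0.293% of that list was. The 3 H3K9me2 peaks of starved muscle at Rora had fold enrichments from 3.87 to 4.19.

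Upstream sequence was taken from RefSeq promoters of GRCm38.p6, which matched 9 of the 10 genes with 12 start sites. It is shown for the 4 genes at which GR and LSD1 were both called at the promoter in fed muscle, as the 250 bases before the TSS in the direction of the gene. No annotated exon lies in them. E-boxes (CACGTG) are in capitals.
Per1 first TSS, chr11:69098699-69098948, plus strand: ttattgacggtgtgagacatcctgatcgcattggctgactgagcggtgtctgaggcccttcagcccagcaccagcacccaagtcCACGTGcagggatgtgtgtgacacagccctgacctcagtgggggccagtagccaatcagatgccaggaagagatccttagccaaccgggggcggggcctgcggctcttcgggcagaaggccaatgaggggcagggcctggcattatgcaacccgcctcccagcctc
Per1 second TSS, chr11:69099902-69100151, plus strand: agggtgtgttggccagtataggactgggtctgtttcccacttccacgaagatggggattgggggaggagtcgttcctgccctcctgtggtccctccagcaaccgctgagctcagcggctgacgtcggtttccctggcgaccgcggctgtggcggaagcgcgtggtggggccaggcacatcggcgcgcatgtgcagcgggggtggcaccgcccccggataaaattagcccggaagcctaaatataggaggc
Cry1, chr10:85185055-85185304, minus strand: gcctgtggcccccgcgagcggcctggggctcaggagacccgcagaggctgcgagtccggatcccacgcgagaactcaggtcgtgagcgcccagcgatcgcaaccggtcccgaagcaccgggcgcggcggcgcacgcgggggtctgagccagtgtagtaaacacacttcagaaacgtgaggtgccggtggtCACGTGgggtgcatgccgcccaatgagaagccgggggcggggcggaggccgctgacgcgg
Nr1d1, chr11:98775378-98775627, minus strand: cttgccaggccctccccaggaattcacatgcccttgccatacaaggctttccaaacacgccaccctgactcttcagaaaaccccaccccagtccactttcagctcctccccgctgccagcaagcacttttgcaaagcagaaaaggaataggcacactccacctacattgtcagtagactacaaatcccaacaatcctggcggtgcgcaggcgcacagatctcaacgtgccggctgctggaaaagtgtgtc
Dbp, chr7:45704997-45705246, plus strand: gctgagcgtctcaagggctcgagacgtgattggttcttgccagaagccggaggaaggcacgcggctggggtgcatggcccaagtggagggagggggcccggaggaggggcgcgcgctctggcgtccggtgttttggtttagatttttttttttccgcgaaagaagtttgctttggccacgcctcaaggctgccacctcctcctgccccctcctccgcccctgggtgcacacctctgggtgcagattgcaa

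GR peaks of fed muscle covered 3 of the 250 bases at the first and all 250 at the second TSS of Per1, 79 at Cry1, 111 at Nr1d1 and 250 at Dbp. LSD1 peaks of fed muscle covered none of the stretches of Per1, 131 bases at Cry1, 81 at Nr1d1 and 10 at Dbp. The E-box of Per1 starts 166 bp upstream of the first TSS and was under a GR peak of starved muscle alone. The E-box of Cry1 starts 60 bp upstream and was under no peak of the 8 lists. D-boxes (TTACGTAA or TTATGTAA) were found in the promoter of Per3, 205 and 158 bp upstream of the TSS, both under the GR peaks of fed and starved muscle. No ROR element (AANTAGGTCA) was in the 12 promoter sequences of 300 bases. Both strands were searched, and the motifs do not overlap here. Of 32851 RefSeq promoters of that length, 7.15% held an E-box, 1.06% a D-box and 0.219% a ROR element. No GRE-like sequence was in them (0.164% of all). A match is a description of the letters, not of a bound site.

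Another 22 genes of the clock pathway, among them Arntl, Npas2, Bhlhe40, Tef, Hlf, Nfil3 and casein kinase genes, were counted by the same rules. GR peaks lay at 19 of them in fed and 21 in starved muscle (43.1% and 66.5% of all genes), and LSD1 peaks at 20 and 21 (51.1% and 83.7%). At the promoter GR was called for 13 in fed and 15 in starved muscle (13.4% and 23.3% of all genes). LSD1 was called at 15 and 7 of the promoters, where the share of all genes also went down, from 22.4% to 16.2%. The highest GR promoter peaks of fed muscle were at Tef (5.11), which encodes a D-box factor related to DBP, at Ciart (4.09), a circadian repressor, at Bhlhe40 (3.86), an E-box repressor, at Usp2 (3.84), a ubiquitin protease, and at Csnk1d (3.66), a kinase of PER proteins. In starved muscle those at Bhlhe40 (3.72), Tef (3.64), Usp2 (3.11) and Gsk3b (3.08) were among the highest. High LSD1 promoter peaks lay at Prkab1 (4.84), Btrc (4.78), Bhlhe40 (4.59) and Fbxl21 (4.28) in fed muscle. In starved muscle the highest lay at Tef (3.60 and 3.43), Gsk3b (3.54), Prkab1 (3.54) and Csnk1e (3.52).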

How the data were processed

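ChIP-seq reads of fed and starved mouse skeletal muscle were mapped by the authors to mm10 (GRCm38), reads with 1 location were kept, and a blacklist, which the methods name for a human genome build, was applied. MACS2 was then run by the authors in broad mode on each library, with input as control. Bowtie is named in their methods and Bowtie2 in the peak names. Each deposited peak carries a fold enrichment over input, which is a ratio of means over the peak. Its p-value and q-value are deposited as −log10. A deposited score was not used. The submitters' processing notes name bcl2fastq 2.20.0.422. The least stringent q-value was between 0.0925 and 0.0998, looser than the false discovery rate in the methods. The LSD1 starved list holds far more peaks than the text of the study gives and was used as deposited. The labels give an age of 10 weeks and the text of the study a different age. The labels carry 2 library codes. Both GR libraries share one and both LSD1 libraries the other. The input libraries entered through the peak calls. Depth is unknown.

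Gene windows, promoters and positions were taken from 45756 curated RefSeq transcripts on chromosomes 1 to 19, X and Y with Python 3.11.15, numpy 2.4.6, pandas 2.3.3, scipy 1.17.1 and matplotlib 3.10.9. A peak belongs to a gene by its midpoint, and peaks overlapped from 1 bp. Shares carry exact 95% intervals. Sequences came from RefSeq, and the 12 promoters of 9 of the genes were checked against the genome. Counting, overlap and motif search were tested on simulated data. The genes, the lists, the motifs and the alternatives were chosen with earlier results of these data known. Named were, for each gene, the highest peak in each GR and LSD1 list, promoter peaks, GR peaks with a GRE-like sequence or enriched at least 5 times, and of the other 22 clock pathway genes those with the 5 highest promoter peaks in a list. Some items are not reported here. Other peaks were named after their values were seen.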

Additional observations from a re-analysis of the deposited data

How the results depend on the processing

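In all, 182 alternative values were computed. Of the values that answer a comparison, 79 kept their size, 57 moved and 1 changed direction; of the others, 32 kept their size and 13 moved.

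With peaks enriched at least 5 times, clock genes with a peak numbered 5 (GR fed), 3 (GR starved), 0 (both LSD1 lists and both H3K9me2 lists), 1 (H3K9me1 fed) and 2 (H3K9me1 starved), where 7.17% and 3.37% of all genes had one for GR. The fed and starved shares of all genes were 5.77% and 1.20% for LSD1, 2.01% and 7.26% for H3K9me1, and 2.94% and 0.164% for H3K9me2. Promoters numbered 1 for GR fed and 0 for GR starved and LSD1. Of all genes 0.275% and 0.134% had one for GR (fed and starved), and 0.779% and 0.0879% for LSD1. The share of GR peaks called again was 28.6%, and the ratio of starved to fed GR peaks turned from 2.13 to 0.429 (list 0.436). The share of GR peaks with LSD1 was 0.00% in both conditions. That follows from the cut, which left no LSD1 peak at the clock genes. At q-values of 1e-05 or less, genes with a peak numbered 0 for both LSD1 lists, H3K9me1 fed and both H3K9me2 lists, where 0.386% to 1.86% of all genes had one, and 1 for H3K9me1 starved (2.11%). Promoters numbered 2 in each GR list (Per1 and Nr1d1, beside 1.32% and 1.16% of all genes) and 0 in each LSD1 list (0.141% and 0.0688%). The share of GR peaks with LSD1 was 0.00%, since no LSD1 peak at the clock genes passed this cut. The GR ratio was 1.40 (list 0.702). At q-values of 0.01 or less, genes with a peak numbered 3 and 5 (H3K9me1 fed and starved, 18.5% and 40.5% of all genes) and 6 and 0 (H3K9me2, 68.3% and 1.94%), and LSD1 starved promoters 0 (2.99%). LSD1 peaks called again came to 3.85%, and GR peaks with LSD1 to 35.1% in fed and 10.2% in starved muscle. Ratios of starved to fed were 1.32 (GR, as in its list) and 0.462 (LSD1, list 0.899). They were 3.00 for H3K9me1 (9 starved against 3 fed peaks, list 2.94) and 0.00 for H3K9me2 (list 0.0295).

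With lists of equal length, genes with a peak numbered 5 (H3K9me1 starved, 35.9% of all genes) and 3 (H3K9me2 fed, 22.2%), and promoters 5 (GR starved, 9.48%) and 0 (LSD1 starved, 4.34%). Shares were 62.3% (GR called again), 8.70% (LSD1 called again) and 6.00% (GR with LSD1, starved). Within 10 kb of a TSS, H3K9me1 starved had 4 genes (29.8% of all genes) and H3K9me2 starved 0 (2.70%), and up to 1000 bp after the TSS LSD1 starved had 4 promoters (22.3%). GRE-like sequences without a mismatch lay in 0 GR peaks of the clock genes in each list (0.249% and 0.0558% of the whole lists). With at most 2 mismatches they lay in 6 and 9 (11.3% and 7.96%, whole lists 9.75% and 4.33%). Counted in base pairs, the ratios were 0.630 (LSD1) and 0.00780 (H3K9me2), and without Rora that of H3K9me2 was 0.00.

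The alternatives on ratios by q-value and by enrichment, and those without Rora, were chosen after seeing the data. The causes of these shifts were not tested beyond the fewer peaks each leaves. Overlap shares of the whole lists were not computed under the alternatives, so those of the clock genes stand without a background there. With fold enrichments taken per peak, read depth unknown and 1 library a group, the absence of a peak is a statement about the threshold only. No paired analysis was possible because each group has 1 library.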

Other observations

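E-boxes were also looked for in all GR peaks of the clock genes, a search added after seeing the data. At least 1 E-box lay in 12 of 53 GR peaks of fed muscle (22.6%), against 7.79% of the list, and in 17 of 113 of starved muscle (15.0%), against 8.10%. Nr1d1 gave 6 of the 12 and 9 of the 17. Without Nr1d1 the shares were 14.3% and 8.70%. Per kb of peak there were 0.721 E-boxes in fed and 0.475 in starved muscle at the 10 genes, 0.503 and 0.331 without Nr1d1, and 0.249 and 0.240 in the lists. GR peaks of fed muscle at the clock genes had a median length of 340 bp, against 277 bp in the list, so the values per kb are the ones to compare. In LSD1 peaks the shares were 5.80% in fed (list 5.78%) and 4.35% in starved muscle (list 1.85%).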
